A study of Homo sapiens with 15 samples.

Results

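The genes described here are 41 genes of the S phase of the cell cycle and of DNA replication, taken by symbol from a list of genes that rise as cells copy their DNA. All 41 were found among the 12995 genes of both expression tables, each under a single Ensembl identifier. The study asked how the RNA-binding and DNA-binding protein YBX1 and PI3K/mTOR signalling relate to proliferation and invasion in head and neck cancer, and compared 3 human cell lines with 3 libraries in each of 5 groups. OKF6 is a normal oral epithelial line, labelled wild type. SCC15 and SCC25 are oral cancer lines, each measured without doxycycline (+YBX1, labelled wild type) and after doxycycline at 1 µg/mL for 3 days (–YBX1, labelled YBX1 knockout). The doxycycline induces a guide against YBX1 in cells that carry Cas9. Both arms of each cancer line were therefore transduced, sorted for GFP and mCherry and expanded, and the +YBX1 arm of a line is also that line in the comparison of the lines. The labels do not say whether OKF6 was transduced or sorted. A treated group without the guide was not analysed here, so an effect of doxycycline and an effect of YBX1 loss cannot be told apart. The culture medium was serum-free (K-SFM) for OKF6 and SCC25, whereas SCC15 was kept in DMEM with added serum, and for SCC15 the line and its medium cannot be told apart either. The labels do not say that replicates are separate cultures, and p-values measure the spread between these libraries, which may be technical.

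Values are log2 CPM, the log2 of counts per library scaled to a common normalized size, from 3′ end libraries in which each transcript gives reads near its end only. Counted reads lay between 4075290 and 6118501 per library. The 41 genes had between 1 and 3004 reads in a library, with a median of 248, and 39 of them had at least 10 reads in every library. E2F8 alone had 3 reads or fewer in any library. Such counts cover counting error only. In bulk RNA, a smaller share of cells in S phase and less of an RNA per cell cannot be told apart. The labelled cell type was checked against 7 keratinocyte markers, whose summed level lay between 23106 and 30752 CPM in OKF6 and between 11753 and 19839 CPM in SCC25 +YBX1. In SCC15 +YBX1 the sum lay between 4.47 and 31.3 CPM, and TP63 had 3 reads or fewer in every library of that group, so the SCC15 libraries lack the markers of squamous epithelium. Of 7 mesenchymal markers in the tables (of 11 listed), ZEB1, LUM and CDH2 were called higher in SCC15 +YBX1 than in SCC25 +YBX1 and FN1, COL1A1 and VIM lower, with a median log2 change of 0.81. CDH2, ZEB1 and LUM had 3 reads or fewer in every OKF6 library. The 7 summed to 414 to 432 CPM in SCC15 +YBX1, 2459 to 3236 CPM in SCC25 +YBX1 and 708 to 1698 CPM in OKF6. Of 4 leukocyte markers only CD68 was listed, at no more than 1.18 CPM in SCC15 +YBX1 and at most 39.4 CPM in SCC25 +YBX1. The part of these differences in what follows was not tested.

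Before S phase, the MCM helicase is loaded onto origins by CDC6 and CDT1, a step that geminin (GMNN) restrains. CDC45 and the GINS complex then join the MCM ring to form the active helicase, polymerases copy both strands behind it on the PCNA clamp, and enzymes such as TYMS and ribonucleotide reductase supply the nucleotides. Many of these genes are transcribed together at the G1/S boundary by E2F factors. Their RNA is used as a mark of proliferating cells in epithelium and in its tumours. YBX1 was named for binding the Y box, a promoter element that contains an inverted CCAAT sequence.

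The promoters of members that were called different between the lines and of members that were not called are shown side by side, because the genes are known as a co-regulated group. RefSeq windows of GRCh38.p14, from 250 bases before to 50 bases after a transcript start, matched 32 of the 41 genes, and ATAD2, CCNE2, DSCC1, E2F8, MCM4, MCM5, POLD3, RPA2 and WDR76 had no window. Each window was searched on both strands for 4 E2F-type words, TTTGGCGC, TTTCCCGC, TTTGCCGC and TTTCGCGC, and for CCAAT. The first and the last of these words can overlap when they lie on opposite strands. The stretches below run 5′ to 3′ along the gene's strand, with the words in capitals. The first 3 genes were higher in SCC15 than in both other lines, and PCNA was lower in SCC25 than in both other lines. With all libraries in the fit, POLA1 and UHRF1 were called in no comparison of the lines. Their libraries were not alike all the same, and those of UHRF1 in SCC25 lay below all of SCC15 +YBX1 and OKF6.
MCM6, chr2:135876482-135876610, minus strand: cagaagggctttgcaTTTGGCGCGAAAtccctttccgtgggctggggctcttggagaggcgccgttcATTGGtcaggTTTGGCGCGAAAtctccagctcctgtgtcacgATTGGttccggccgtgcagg
GINS2, chr16:85688963-85689127, minus strand: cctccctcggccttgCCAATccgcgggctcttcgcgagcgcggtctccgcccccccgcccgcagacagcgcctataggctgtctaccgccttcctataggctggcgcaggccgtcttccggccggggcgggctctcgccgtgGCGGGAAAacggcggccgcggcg
GMNN, chr6:24775303-24775381, plus strand: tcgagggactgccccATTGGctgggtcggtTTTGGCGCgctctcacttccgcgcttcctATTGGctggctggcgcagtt
PCNA, chr20:5126628-5126789, minus strand: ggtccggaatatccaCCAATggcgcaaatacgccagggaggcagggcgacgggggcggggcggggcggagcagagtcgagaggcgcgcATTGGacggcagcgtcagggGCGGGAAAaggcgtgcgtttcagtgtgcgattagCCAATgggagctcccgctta
POLA1, chrX:24693766-24693901, plus strand: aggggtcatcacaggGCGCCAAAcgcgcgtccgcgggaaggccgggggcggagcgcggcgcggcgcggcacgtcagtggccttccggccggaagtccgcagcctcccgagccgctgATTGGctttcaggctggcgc
UHRF1, chr19:4909969-4910081, plus strand: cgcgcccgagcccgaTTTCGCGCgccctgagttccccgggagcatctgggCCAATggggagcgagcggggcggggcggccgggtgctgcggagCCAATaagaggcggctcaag

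MCM6 holds the overlapping pair of words at 2 places, each reading as a single run of capitals, with a CCAAT word on the opposite strand after each of them. The other stretches hold 1 E2F-type word each. An E2F-type word stood in the window of 19 of the 32 genes (59.4%), against 6.6% of the 10053 genes of the deposited tables with a window and 3.99% of all 27305 genes with one. CCAAT stood in 24 of the 32 (75%), against 43.4% and 39.7%. Both were found in 15 of the 32 (46.9%). Among the 22 genes with a window that were higher in SCC15 than in SCC25 or OKF6, 13 (59.1%) held an E2F-type word. Among the other 10 genes, 6 (60%) did. CCAAT stood in 15 of those 22 (68.2%) and in 9 of the other 10 (90%). A word is a match of letters and not a site, and genes listed as S-phase genes are known for E2F control, so these shares describe the list.

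**Figure D1:**
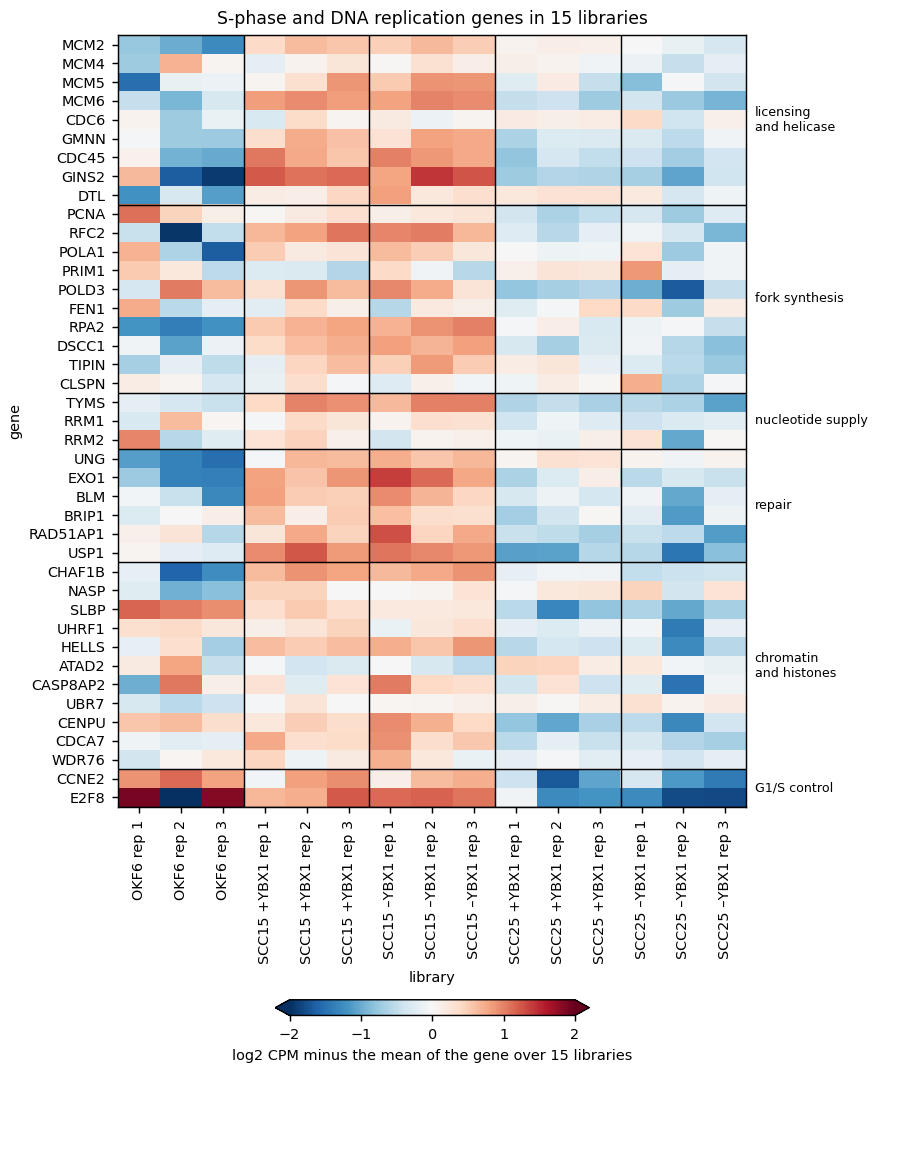
Each row is a gene, grouped by role, and each column a library. Colour is log2 CPM minus the mean of the gene over the 15 libraries, with values beyond 2 in either direction drawn at the end of the scale. The 6 SCC15 columns are mostly red and the 6 SCC25 columns mostly blue, while the 3 OKF6 columns differ among themselves, most for E2F8 and GINS2.

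The first question was whether the genes differ between the cancer lines, which the study places in the mesenchymal-like (SCC15) and basal-like (SCC25) subtypes. SCC15 had the higher level for most of them. With limma and an adjusted p under 0.05 over all genes as the threshold, 19 of 41 genes were called higher in SCC15 against SCC25 and 0 lower. Among all genes, 20.0% were called higher and 23.6% lower. The median log2 change of the 41 genes was 0.75, against -0.01 for all genes. USP1 (3.79-fold), GINS2 (3.44-fold), CCNE2 (3.06-fold), MCM6 (2.65-fold) and TYMS (2.54-fold) had the largest of the called changes. Against OKF6, 20 genes were higher in SCC15 and 1 (SLBP) was lower, where 26.9% of all genes were called higher and 23.4% lower. The median was 0.65, against 0.10 for all genes. SCC25 and OKF6 differed in both directions, with 5 genes higher and 6 lower in SCC25, where 18.9% and 11.3% of all genes were called. The median was 0.04, against 0.13 for all genes, and became 0.18 without OKF6 replicate 1, -0.02 without OKF6 replicate 2 and -0.10 without OKF6 replicate 3, where that of all genes lay between 0.12 and 0.15. The 3 comparisons share libraries in pairs and are not independent of each other.

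**Figure D2:**
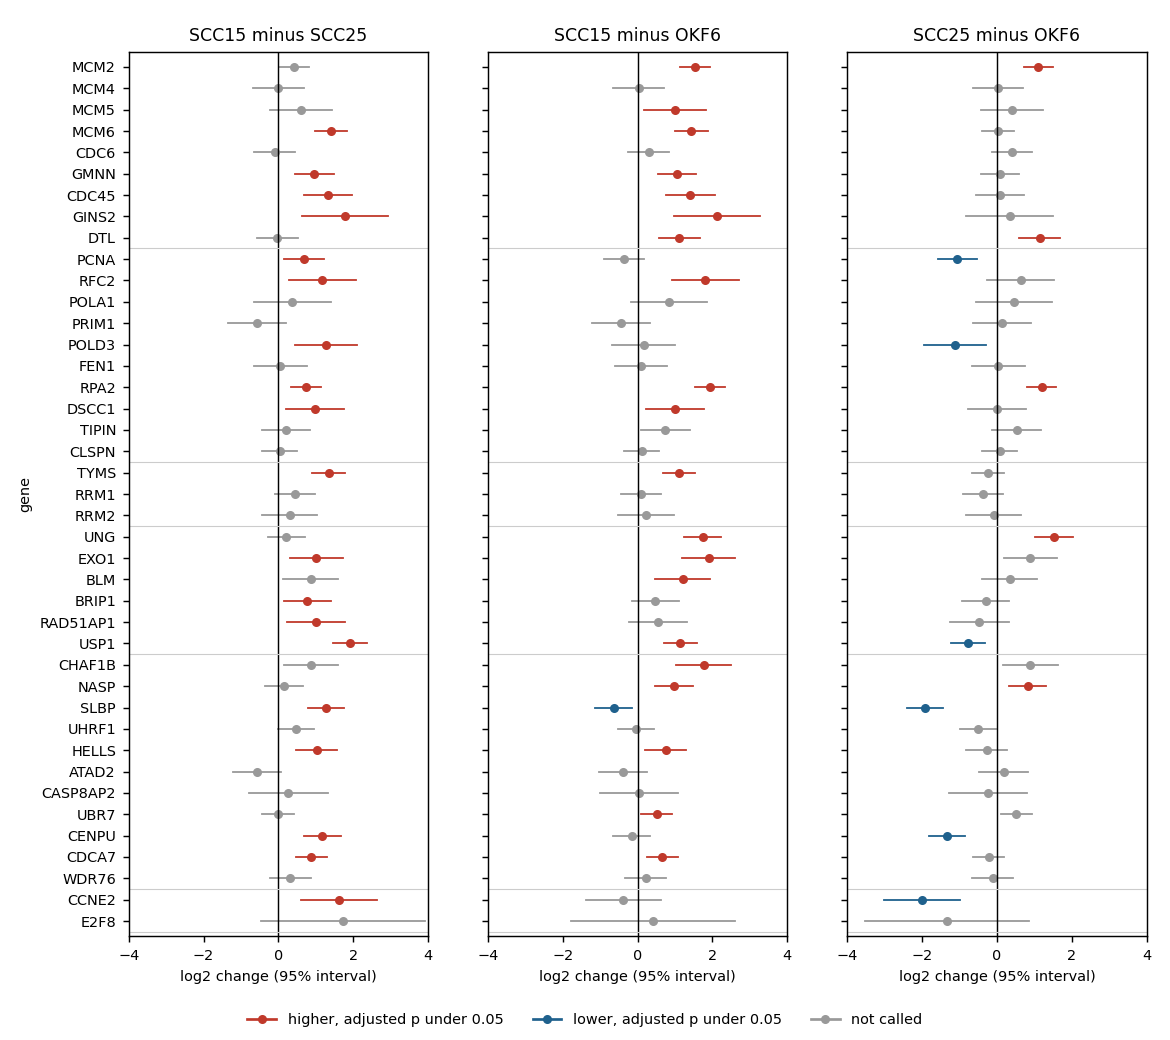
Each panel compares a pair of lines without doxycycline. A point is the log2 change of a gene and the bar its 95% interval from limma. Red and blue mark genes past the threshold, 19 and 0 of 41 for SCC15 minus SCC25, 20 and 1 for SCC15 minus OKF6, and 5 and 6 for SCC25 minus OKF6.

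Of the 9 licensing and helicase genes, 4 stood higher in SCC15 over SCC25, 7 were higher in SCC15 than in OKF6 and 2 were higher in SCC25 than in OKF6, with none lower. Among all genes, 20.0%, 26.9% and 18.9% were called higher in these comparisons, and 23.6%, 23.4% and 11.3% lower. MCM6, a subunit of the helicase ring, measured 7.23, 7.33 and 7.23 in SCC15, 5.91, 5.98 and 5.69 in SCC25 and 5.93, 5.48 and 6.07 in OKF6. The SCC15 libraries lay above all others and those of SCC25 and OKF6 overlapped. MCM6 was higher in SCC15 than in SCC25 by 1.40 ± 0.20 (log2, SE; adjusted p = 0.000179) and than in OKF6 by 1.44 ± 0.20 (adjusted p = 0.000114). The gene lies on chromosome 2 (135839626 to 135876443, hg38). GINS2, a subunit of the GINS complex, measured 7.49, 7.35 and 7.39 in SCC15, 5.55, 5.67 and 5.65 in SCC25 and 6.90, 4.61 and 4.34 in OKF6. The first OKF6 library stood far above the other two, so that the OKF6 mean carried an SD of 1.40 log2. GINS2 was higher in SCC15 by 1.78 ± 0.52 against SCC25 (adjusted p = 0.0181) and by 2.12 ± 0.52 against OKF6 (adjusted p = 0.00602), the latter becoming 2.93 without OKF6 replicate 1. CDC45, the partner of GINS in the active helicase, measured 7.38, 7.09 and 6.89 in SCC15, 5.54, 6.00 and 5.83 in SCC25 and 6.42, 5.39 and 5.32 in OKF6. It was higher in SCC15 by 1.33 ± 0.29 and 1.41 ± 0.29 (adjusted p = 0.00396 and 0.00221). GMNN, the inhibitor of licensing, measured 6.58, 6.97 and 6.81 in SCC15, 5.60, 5.94 and 5.93 in SCC25 and 6.19, 5.52 and 5.50 in OKF6. Its SCC15 libraries lay above all libraries of the other lines, by 0.96 ± 0.23 and 1.05 ± 0.23 on average (adjusted p = 0.00632 and 0.00308).

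Within the same helicase ring the subunits did not move alike. MCM2 measured 8.16, 8.41 and 8.33 in SCC15, 7.85, 7.91 and 7.88 in SCC25 and 7.02, 6.79 and 6.50 in OKF6. The groups of MCM2 did not overlap, with SCC15 highest and OKF6 lowest. It passed against OKF6 in SCC15 (1.53 ± 0.18, adjusted p = 3.6e-05) and in SCC25 (1.11 ± 0.18, adjusted p = 0.00113), and the change of 0.42 ± 0.18 between the cancer lines did not (adjusted p = 0.0787). MCM5 measured 6.32, 6.58 and 7.15 in SCC15, 6.02, 6.43 and 5.80 in SCC25 and 4.76, 6.12 and 6.15 in OKF6. It was higher in SCC15 than in OKF6 by 1.01 ± 0.37 (adjusted p = 0.0437), a call that was lost without OKF6 replicate 1, with a change of 0.55. MCM4 measured 6.04, 6.297 and 6.48 in SCC15, 6.35, 6.298 and 6.17 in SCC25 and 5.53, 6.93 and 6.28 in OKF6. Its 3 groups overlapped, and its changes lay between 0.00 and 0.03, with 95% intervals from -0.67 to 0.70. CDC6, the loader of the ring, measured 5.56, 6.22 and 5.91 in SCC15, 6.01, 5.98 and 6.01 in SCC25 and 5.93, 5.14 and 5.72 in OKF6, and its changes of -0.10, 0.30 and 0.40 did not pass. DTL, the substrate receptor of the ligase that destroys CDT1, measured 5.81, 5.81 and 6.09 in SCC15, 5.88, 5.96 and 5.96 in SCC25 and 4.46, 5.36 and 4.57 in OKF6. DTL was higher than OKF6 in both cancer lines, by 1.11 ± 0.25 in SCC15 and 1.14 ± 0.25 in SCC25 (adjusted p = 0.00346 and 0.00635).

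**Figure D3:**
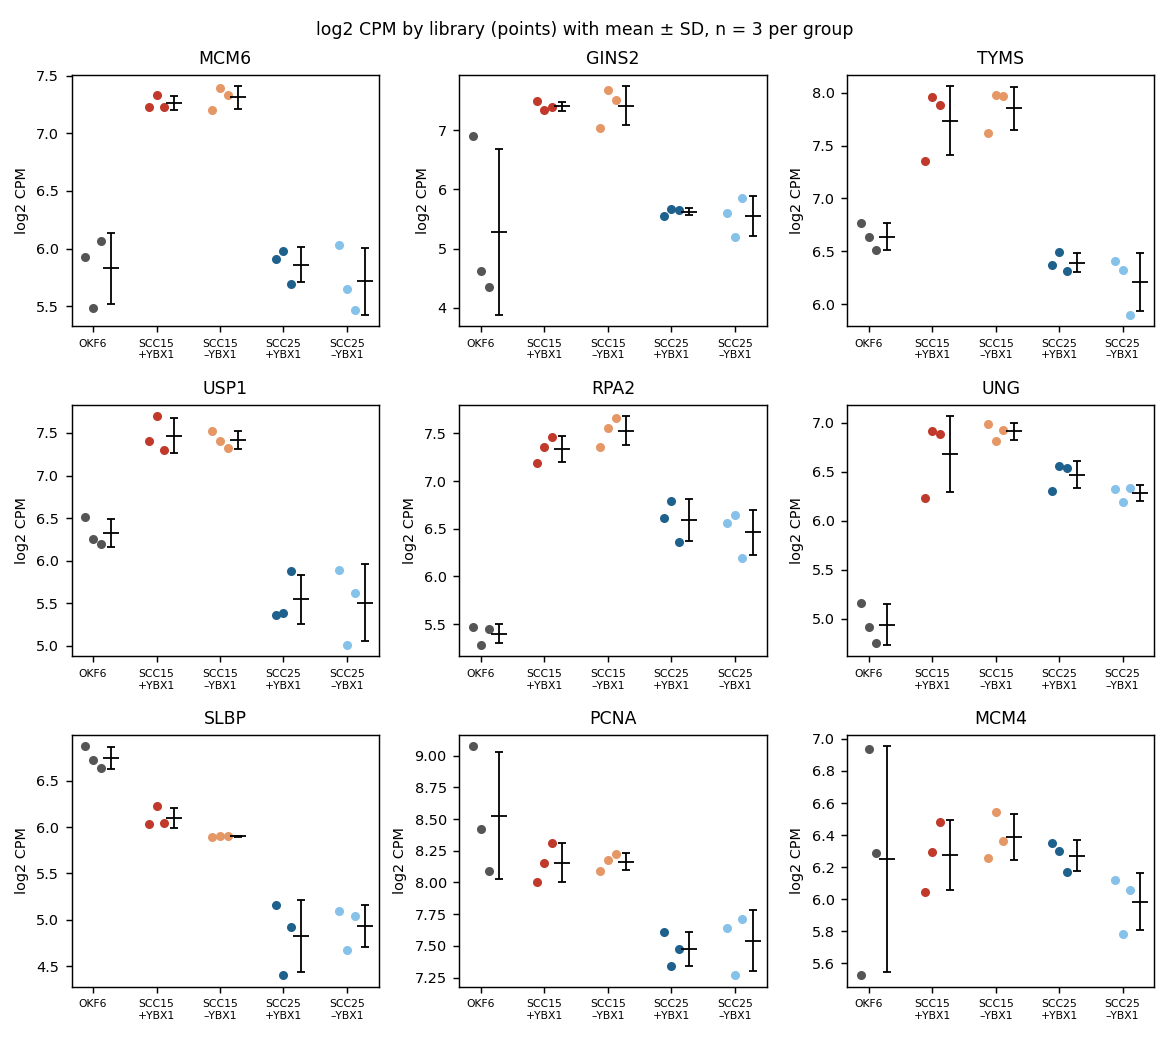
Points are single libraries and bars the mean ± SD of 3 libraries, on the log2 CPM scale, with a separate vertical range for each gene. MCM6, GINS2, TYMS and USP1 are highest in both SCC15 groups, UNG and RPA2 lowest in OKF6, and SLBP and PCNA lowest in both SCC25 groups, while MCM4 overlaps in all groups without doxycycline.

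Of the 10 genes of DNA synthesis at the fork, 5 were higher in SCC15 than in SCC25, 3 were higher in SCC15 than in OKF6, and in SCC25 against OKF6 1 was higher and 2 were lower. The shares of all genes were, in this order, 20.0%, 26.9%, 18.9% and 11.3%, and these counts against OKF6 lay near them. RPA2, which coats single-stranded DNA, measured 7.19, 7.36 and 7.46 in SCC15, 6.62, 6.79 and 6.36 in SCC25 and 5.46, 5.28 and 5.45 in OKF6. All 3 lines were apart, SCC15 by 0.75 ± 0.18 from SCC25 and SCC25 by 1.19 ± 0.18 from OKF6 (adjusted p = 0.00636 and 0.000778). Of the 41 genes, RPA2, USP1 and SLBP were those with all 3 comparisons past the threshold. PCNA, the sliding clamp, measured 8.003, 8.15 and 8.31 in SCC15, 7.61, 7.34 and 7.47 in SCC25 and 9.07, 8.42 and 8.09 in OKF6. The SCC25 libraries were the lowest, 1.05 ± 0.24 below OKF6 (adjusted p = 0.00799), and SCC15 was 0.68 ± 0.24 above SCC25 (adjusted p = 0.0412). The latter call was lost without any 1 of the 6 libraries (adjusted p up to 0.131). RFC2, a subunit of the clamp loader, measured 4.67, 4.82 and 5.07 in SCC15, 3.75, 3.45 and 3.83 in SCC25 and 3.56, 2.06 and 3.51 in OKF6. It was higher in SCC15 by 1.81 ± 0.41 against OKF6 (adjusted p = 0.00343) and by 1.18 ± 0.41 against SCC25 (adjusted p = 0.0368), the second call again lost without any 1 library (adjusted p up to 0.121). POLD3, a subunit of polymerase delta, measured 3.89, 4.46 and 4.21 in SCC15, 2.82, 2.92 and 3.00 in SCC25 and 3.25, 4.63 and 4.22 in OKF6. POLD3 was lowest in SCC25, 1.12 ± 0.38 below OKF6 (adjusted p = 0.0462) and 1.27 ± 0.38 below SCC15 (adjusted p = 0.0189). DSCC1, part of an alternative clamp loader, was higher in SCC15 by 0.99 against each other line (adjusted p = 0.0412 and 0.0365).

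The remaining fork genes did not pass in any comparison of the lines. POLA1, the catalytic subunit of polymerase alpha, measured 5.62, 5.29 and 5.38 in SCC15, 5.11, 5.03 and 5.03 in SCC25 and 5.82, 4.50 and 3.47 in OKF6. The OKF6 libraries of POLA1 spanned more than those of both cancer lines together, and its changes of 0.37, 0.83 and 0.46 had an SE of 0.46 each. CLSPN, which passes stress signals from the fork to the checkpoint kinase, measured 5.46, 5.97 and 5.60 in SCC15, 5.53, 5.76 and 5.63 in SCC25 and 5.76, 5.67 and 5.28 in OKF6, with changes between 0.03 and 0.11. PRIM1, FEN1 and TIPIN had changes between -0.58 and 0.74.

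Of the 3 nucleotide genes, TYMS, the thymidylate synthase, measured 7.36, 7.96 and 7.88 in SCC15, 6.37, 6.49 and 6.31 in SCC25 and 6.77, 6.63 and 6.52 in OKF6. The SCC15 libraries lay above all others. TYMS was higher in SCC15 by 1.34 ± 0.20 against SCC25 (adjusted p = 0.000242) and by 1.096 ± 0.20 against OKF6 (adjusted p = 0.000776). The subunits of ribonucleotide reductase did not pass with all libraries in the fit. RRM1, the large subunit, measured 7.96, 8.36 and 8.22 in SCC15, 7.57, 7.89 and 7.72 in SCC25 and 7.67, 8.61 and 8.02 in OKF6. RRM2, the small subunit, measured 8.47, 8.66 and 8.30 in SCC15, 8.12, 8.07 and 8.32 in SCC25 and 9.17, 7.64 and 7.95 in OKF6. For both, OKF6 overlapped the cancer lines, and their changes between the lines lay between -0.37 and 0.45. Of 86 pieces of the RRM2 3′ end, 9.3% matched another place in the genome as well, so its count may be split between loci.

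Of the 6 repair genes, 4 were called higher in SCC15 against SCC25 and 4 against OKF6, where 20.0% and 26.9% of all genes were. USP1, which removes ubiquitin from PCNA and from the Fanconi anaemia proteins, measured 7.40, 7.70 and 7.30 in SCC15, 5.37, 5.39 and 5.88 in SCC25 and 6.51, 6.26 and 6.202 in OKF6. The 3 lines did not overlap. USP1 was higher in SCC15 by 1.92 ± 0.20 against SCC25 (adjusted p = 2.5e-05) and by 1.14 ± 0.20 against OKF6 (adjusted p = 0.000802), and lower in SCC25 than in OKF6 by 0.78 ± 0.20 (adjusted p = 0.0158). UNG, which removes uracil from DNA, measured 6.23, 6.92 and 6.89 in SCC15, 6.31, 6.56 and 6.54 in SCC25 and 5.16, 4.91 and 4.75 in OKF6. OKF6 was lowest, below SCC15 by 1.74 ± 0.23 and below SCC25 by 1.53 ± 0.23 (adjusted p = 8.17e-05 and 0.000709), while the cancer lines overlapped. EXO1, an exonuclease of mismatch repair and of end resection, measured 4.83, 4.61 and 4.92 in SCC15, 3.41, 3.75 and 4.17 in SCC25 and 3.30, 2.68 and 2.66 in OKF6. It was higher in SCC15 by 1.90 ± 0.32 against OKF6 (adjusted p = 0.000524) and by 1.01 ± 0.32 against SCC25 (adjusted p = 0.0257). The helicase BLM was higher in SCC15 than in OKF6 by 1.201 (adjusted p = 0.011), and BRIP1 and RAD51AP1 were above SCC25 in SCC15 by 0.77 and 1.01 (adjusted p = 0.0493 and 0.038).

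Of the 11 chromatin and histone genes, 4 were higher in SCC15 than in SCC25, while against OKF6 5 were higher and 1 lower in SCC15, and 1 was higher and 2 were lower in SCC25. The shares of all genes were, in this order, 20.0%, 26.9%, 23.4%, 18.9% and 11.3%. SLBP, which binds the stem-loop of histone mRNAs, was 1 of the 5 genes with the highest mean in OKF6. It measured 6.03, 6.22 and 6.04 in SCC15, 5.16, 4.40 and 4.92 in SCC25 and 6.87, 6.73 and 6.64 in OKF6. No groups overlapped. SLBP was lower in SCC25 than in OKF6 by 1.92 ± 0.22 (adjusted p = 0.000121) and than in SCC15 by 1.27 ± 0.22 (adjusted p = 0.000769). The change of -0.65 ± 0.22 between SCC15 and OKF6 (adjusted p = 0.0296) was no longer called with equal library medians, quantile normalization, total reads or no variance trend, nor without SCC15 replicate 1 or replicate 3 (adjusted p up to 0.0854). CENPU, a kinetochore protein, measured 4.96, 5.24 and 5.099 in SCC15, 3.97, 3.71 and 4.10 in SCC25 and 5.299, 5.38 and 5.09 in OKF6. It was lowest in SCC25, by 1.33 ± 0.22 against OKF6 and 1.17 ± 0.22 against SCC15 (adjusted p = 0.00142 and 0.00148). CHAF1B, a subunit of the histone chaperone CAF-1, measured 5.62, 5.87 and 5.76 in SCC15, 4.81, 4.92 and 4.91 in SCC25 and 4.82, 3.39 and 3.74 in OKF6. It was higher in SCC15 than in OKF6 by 1.77 ± 0.33 (adjusted p = 0.00109), and the 0.87 ± 0.33 between the cancer lines did not pass (adjusted p = 0.0538). The histone chaperone NASP was higher than OKF6 in SCC15 by 0.97 and in SCC25 by 0.82 (adjusted p = 0.00445 and 0.0199). HELLS, a chromatin remodeller, and CDCA7, its activating partner, were each higher in SCC15, by 1.02 and 0.88 against SCC25 and by 0.75 and 0.65 against OKF6 (adjusted p between 0.00329 and 0.0267). UHRF1, which guides the copying of DNA methylation, measured 4.58, 4.72 and 4.90 in SCC15, 4.28, 4.19 and 4.34 in SCC25 and 4.77, 4.85 and 4.68 in OKF6, and its changes between -0.50 and 0.46 did not pass. Of the UHRF1 3′ end pieces, 37.2% matched another place as well as their own, so its level is uncertain. UBR7 was higher in SCC15 than in OKF6 by 0.51 (adjusted p = 0.0445), a call kept without OKF6 replicate 1 and lost without any other library (adjusted p up to 0.152).

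The G1/S genes were the lowest in reads. CCNE2, cyclin E2, measured 2.38, 3.25 and 3.36 in SCC15, 2.01, 0.74 and 1.38 in SCC25 and 3.33, 3.57 and 3.23 in OKF6. SCC25 was lowest without overlap, by 2.00 ± 0.46 against OKF6 and 1.62 ± 0.46 against SCC15 (adjusted p = 0.00799 and 0.0152). E2F8, a repressor of E2F targets, measured 1.40, 1.48 and 1.97 in SCC15, 0.68, -0.54 and -0.46 in SCC25 and 2.64, -1.56 and 2.58 in OKF6. The second OKF6 library held 1 read where the others held 32 and 35, and the OKF6 SD was 2.41 log2. Its changes of 1.72, 0.40 and -1.33 had an SE of 0.99 each and did not pass.

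Ordered by their means, 31 of the 41 genes were highest in SCC15, 5 in SCC25 and 5 in OKF6, and 21 were lowest in OKF6, 18 in SCC25 and 2 in SCC15. The order SCC15 over SCC25 over OKF6 was the most frequent (18 genes), and in 7 of these the first step passed and in 4 the second. For SCC15 over OKF6 over SCC25 (13 genes), the first step passed in 5 and the second in 2. In both orders most steps between neighbouring lines did not pass the threshold. These orders and the joint counts that follow were not taken over all genes. They describe the 41 genes and cannot be set against a background share. In all, 12 genes were higher in SCC15 than in each other line (CDC45, CDCA7, DSCC1, EXO1, GINS2, GMNN, HELLS, MCM6, RFC2, RPA2, TYMS and USP1) and 5 were higher than OKF6 in both cancer lines (DTL, MCM2, NASP, RPA2 and UNG). A further 14 genes passed in no comparison of the lines (ATAD2, CASP8AP2, CDC6, CLSPN, E2F8, FEN1, MCM4, POLA1, PRIM1, RRM1, RRM2, TIPIN, UHRF1 and WDR76). Those 14 include CDC6, the reductase subunits RRM1 and RRM2, and also POLA1 and PRIM1, which belong to the polymerase alpha and primase complex. POLA2, a subunit of that complex outside the 41 genes, was higher than OKF6 in SCC15 by 1.49 and in SCC25 by 1.29 (adjusted p = 0.000531 and 0.00343).

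The 41 genes were set beside 52 other DNA replication genes and 53 genes of G2 and mitosis. Of the other replication genes, 14 were higher and 4 lower in SCC15 than in SCC25, with a median of 0.34. CCNE1, the paralogue of CCNE2, was higher by 2.16, CDC25A, the phosphatase that activates CDK2, was higher by 2.06, and POLD4, the small subunit of polymerase delta, was lower by 2.09 (adjusted p between 0.00012 and 0.000378). Against OKF6, 17 were higher and 3 lower in SCC15 (median 0.53), with CCNE1, CDC25A and MCM10 changed by 3.10, 2.23 and 2.07. In SCC25 against OKF6, 8 were higher and 3 lower (median 0.14), with DBF4 at -1.97, ASF1B at 1.80 and RNASEH2A at 1.78. The G2 and mitosis genes showed 9 higher and 6 lower in SCC15 against SCC25 (median 0.10), 11 and 7 in SCC15 against OKF6 (median 0.01) and 7 and 7 in SCC25 against OKF6 (median 0.08). Their largest changes were those of HMGB2 (2.05), JPT1 (-1.81) and GTSE1 (1.32) in the first comparison, CDC25C (2.28), AURKB (2.12) and ANLN (-1.72) in the second, and HMGB2 (-2.14), CKS1B (1.82) and AURKB (1.61) in the third. In the first comparison the median of the G2 and mitosis genes was thus closer to that of all genes than was the median of the 41 genes.

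**Figure D4:**
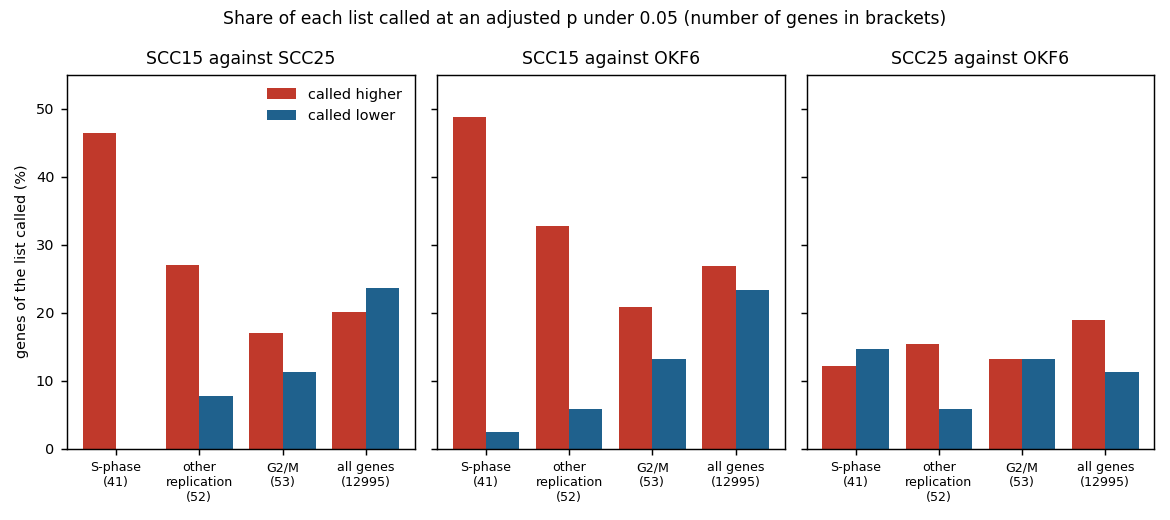
Bars give the percentage of each list called higher (red) or lower (blue) at an adjusted p under 0.05, with the number of genes in brackets. Of the 41 S-phase genes, 46.3% were called higher in SCC15 against SCC25 and 48.8% against OKF6, where all genes gave 20.0% and 26.9%.

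Calls near the threshold depended on single libraries. Between SCC15 and SCC25, 10 of the 19 calls (CDC45, CDCA7, CENPU, GMNN, HELLS, MCM6, RPA2, SLBP, TYMS and USP1) passed in every fit that left out 1 library. The count fell to 12, 11 and 11 without SCC15 replicate 1, 2 and 3, and to 11, 11 and 15 without SCC25 replicate 1, 2 and 3, with the median between 0.68 and 0.77 in those fits. Over all genes the calls fell as well, from 5672 to between 4494 and 4773. PCNA, RFC2, DSCC1 and RAD51AP1 lost their call without any 1 of the 6 libraries (adjusted p up to 0.138). EXO1 and BRIP1 lost it without any library other than SCC25 replicate 3 (adjusted p up to 0.104 and 0.173). GINS2 lost it without SCC15 or SCC25 replicate 1 (up to 0.0586), POLD3 without SCC15 replicate 2 or 3 or SCC25 replicate 1 or 2 (up to 0.0768), and CCNE2 without SCC15 replicate 2 or 3 or SCC25 replicate 2 (up to 0.0677). Against OKF6, 16 of 21 calls in SCC15 and 8 of 11 in SCC25 passed every such fit. In SCC15, MCM5 also lost its call without SCC15 replicate 2 or 3 (adjusted p over the left-out fits up to 0.16), DSCC1 without OKF6 replicate 2 or any SCC15 library (up to 0.116), and HELLS without OKF6 replicate 3 or any SCC15 library (up to 0.0866). In SCC25, POLD3 lost its call in each left-out fit but that without OKF6 replicate 1 (up to 0.12), NASP without OKF6 or SCC25 replicate 2 or 3 (up to 0.0736), and USP1 without SCC25 replicate 1 or 2 (up to 0.0709). With only the compared groups in the fit, MCM5, DSCC1, HELLS and UBR7 lost the call in SCC15 against OKF6, and POLD3 that in SCC25 against OKF6, which voom did not call either. Without a variance trend PCNA lost its call between the cancer lines, MCM5, HELLS and UBR7 theirs in SCC15 against OKF6, and NASP its call in SCC25 against OKF6. UBR7 was also not called by voom, with 2 reads added, or among the genes above the first quartile of level. Without OKF6 replicate 1, GINS2, POLA1, UBR7, CHAF1B and EXO1 also passed as higher in SCC25 relative to OKF6, and RRM1 as lower (-0.59, adjusted p = 0.0418), which made 10 genes higher and 7 lower, while the calls over all genes rose from 3923 to 5331. The spread among replicates was larger in OKF6 (median SD of the 41 genes 0.44 log2) than in SCC15 (0.20) or SCC25 (0.15).

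The remaining question was whether the genes respond to the loss of YBX1, which the labels describe as a knockout and the study as a knockdown. YBX1 itself measured 6.74, 6.31 and 6.62 log2 CPM in SCC25 +YBX1 and 5.26, 4.70 and 3.65 in SCC25 –YBX1, and 5.11, 5.56 and 6.00 in SCC15 +YBX1 and 3.36, 3.71 and 3.13 in SCC15 –YBX1. All libraries with doxycycline lay below those without, by 2.01 ± 0.35 in SCC25 (unadjusted p = 4.97e-05, adjusted p = 0.29) and 2.15 ± 0.35 in SCC15 (unadjusted p = 2.51e-05, adjusted p = 0.326). The 3′ reads measure YBX1 RNA, and neither the edited site nor the protein. In OKF6 YBX1 measured 6.76, 8.15 and 8.37, above all libraries of the cancer lines.

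No member passed the threshold in either line. In SCC25, 0 of the 41 genes were called by limma (0% of all genes were called), and 0 by voom on the recovered reads. At an unadjusted p under 0.05, 2 were lower and 0 higher, where 1.72% and 1.36% of all genes were. TIPIN, which protects the stalled fork, measured 4.39, 4.48 and 4.08 without and 3.96, 3.71 and 3.49 with doxycycline. Each treated library lay below each untreated one, by 0.60 ± 0.25 on average (unadjusted p = 0.0312, adjusted p = 1). CHAF1B measured 4.81, 4.92 and 4.91 and 4.48, 4.55 and 4.58, also without overlap, with a change of -0.34 ± 0.16 (unadjusted p = 0.0449, adjusted p = 1). Leaving out SCC25 +YBX1 replicate 1 or 2, or SCC25 –YBX1 replicate 2 or 3, took TIPIN to an unadjusted p between 0.0536 and 0.102. Leaving out any 1 of the 6 libraries took CHAF1B to between 0.058 and 0.102. MCM2, MCM4 and DTL were also lower without overlap (-0.26, -0.29 and -0.34), which made 5 genes lower and 0 higher without overlap, where 3.76% and 3.56% of all genes were.

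In SCC15, limma and voom each called 0 genes (0% of all genes), and 0 passed an unadjusted p under 0.05, where 1.11% of all genes were higher and 1.22% lower by that measure. CASP8AP2 was higher without overlap (0.48) and SLBP lower (-0.20), where 3.26% and 3.78% of all genes had no overlap. Between the lines, limma and voom called 0 of 41 genes as different in their response (0% of all genes), with a median difference of -0.24, against -0.01 for all genes. Without SCC25 –YBX1 replicate 2 the median difference was -0.11. At an unadjusted p under 0.05, 1 was lower in SCC25 than in SCC15 and 0 were higher, where 1.15% and 1.12% of all genes were. This was TIPIN, with a difference of -0.93 ± 0.35 (unadjusted p = 0.0198, adjusted p = 1). TIPIN measured 4.04, 4.67 and 4.85 in SCC15 +YBX1 and 4.71, 5.096 and 4.75 in SCC15 –YBX1. The 95% intervals of the 41 changes reached 0.47 log2 to either side in each line by their median, before any adjustment for the number of genes. Changes well above that size, such as that of YBX1, did not pass the adjusted threshold with 3 libraries a group.

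By role, the licensing and helicase genes had no change past the threshold in either line. In SCC25, MCM5, MCM6, CDC6, GINS2, CDC45 and GMNN changed by -0.24 ± 0.25, -0.15 ± 0.16, -0.11 ± 0.21, -0.07 ± 0.19, 0.04 ± 0.17 and 0.11 ± 0.19. In SCC15, MCM2, MCM4, MCM5 and MCM6 changed by 0.01 ± 0.14, 0.11 ± 0.16, 0.35 ± 0.25 and 0.05 ± 0.16, and CDC6, GINS2, CDC45 and GMNN by no more than 0.09. For each of these genes in SCC15 the treated and untreated libraries overlapped. At the fork, PCNA changed by 0.07 ± 0.15 in SCC25 and 0.01 ± 0.15 in SCC15, POLA1 by -0.11 ± 0.23 and 0.15 ± 0.23, and CLSPN by -0.01 ± 0.27 and -0.13 ± 0.27. Of the nucleotide genes, TYMS changed by -0.18 ± 0.19 and 0.12 ± 0.19, RRM1 by -0.06 ± 0.15 and 0.03 ± 0.15, and RRM2 by -0.21 ± 0.27 and -0.34 ± 0.27. The clamp, the thymidylate synthase and the reductase genes thus overlapped between the arms in both lines. UHRF1 and the G1/S genes had the wider errors, with -0.36 ± 0.31 and -0.13 ± 0.31 for UHRF1, 0.08 ± 0.44 and -0.08 ± 0.44 for CCNE2, and -0.77 ± 0.44 and 0.25 ± 0.44 for E2F8. ATAD2, a chromatin ATPase, changed by -0.34 ± 0.19 in SCC25, and EXO1 and CENPU by 0.34 ± 0.24 and 0.33 ± 0.25 in SCC15. The arms of all 3 overlapped, while by same-numbered pairs ATAD2 was lower in each SCC25 pair (-0.24, -0.49 and -0.30) and CENPU higher in each SCC15 pair (0.73, 0.22 and 0.05).

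The changes, none past the threshold, were mostly below 0 in SCC25 and mostly above 0 in SCC15. The median was -0.13 in SCC25, with 33 of 41 changes below 0 (80.5%, against 53.4% of all genes), and 0.06 in SCC15, with 30 above 0 (73.2%, against 48.7%). By same-numbered pairs of libraries, the SCC25 median was 0.12, -0.38 and -0.13, so the first pair went the other way. In all 3 SCC25 pairs 9 genes were lower (22.0%, against 11.5% of all genes) and 1 was higher (2.44%, against 11.02%). Of the other replication genes 19.2% were lower and 9.62% higher in all 3 SCC25 pairs. Of the G2 and mitosis genes 22.6% were lower and 7.55% higher, so the share lower was not particular to the 41 genes. The SCC15 pairs gave 0.14, 0.06 and 0.00, with 8 genes higher in all 3 (19.5%, against 12.4%) and 4 lower (9.76%, against 15.9%). In SCC25 –YBX1, replicate 2 was the lowest of the 6 libraries of that line for 21 of the 41 genes (51.2%), against 24.6% of all genes, and its 10 most counted genes took 16.2% of its reads, the highest of the 15 libraries. In that pair UHRF1 changed by -1.15 and CASP8AP2 by -1.75. Without SCC25 –YBX1 replicate 2 the median was 0.01, with 20 of 41 changes below 0, and without SCC25 –YBX1 replicate 1 it was -0.29. The SCC15 signs also moved. Without SCC15 +YBX1 replicate 1, 19 of 41 changes in SCC15 were below 0 (median 0.03). With equal library medians 16 were (median 0.03). In the SCC25 pairs the other replication genes had medians of 0.12, -0.13 and -0.01, and the G2 and mitosis genes -0.01, -0.12 and -0.05. Over the whole knockdown, limma and voom called 0 genes of both lists in either line, and at an unadjusted p under 0.05 there was 1, lower, among the other replication genes in SCC25 and 0 otherwise. Their medians were -0.03 and -0.03 in SCC25 and -0.02 and -0.06 in SCC15.

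**Figure D5:**
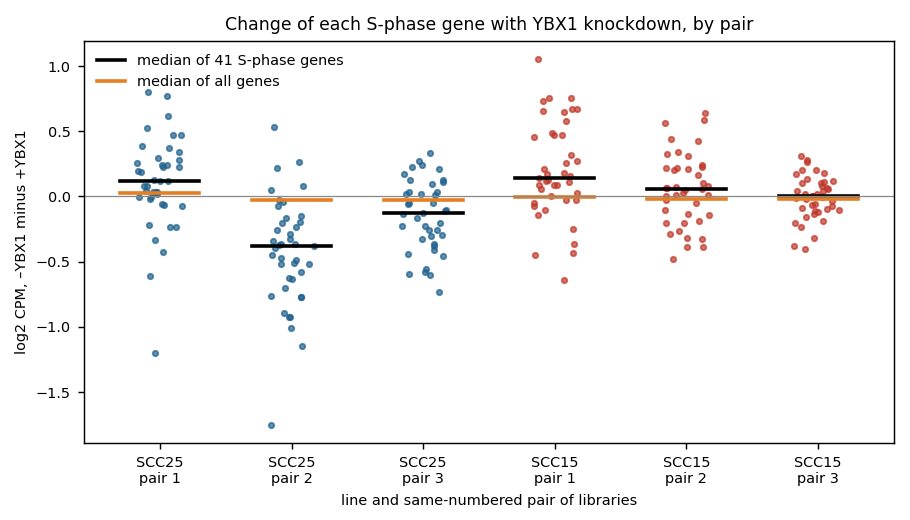
Each point is the log2 change of a gene between the –YBX1 and the +YBX1 library with the same replicate number. Black lines are the medians of the 41 genes (0.12, -0.38 and -0.13 in SCC25, 0.14, 0.06 and 0.00 in SCC15) and orange lines those of all genes, which stay near 0.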

How the data were processed

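The authors prepared 3′ end RNA libraries (QuantSeq 3′ FWD), and their processing notes name Cutadapt, HISAT2, featureCounts, limma and hg38. The authors deposited log2 CPM, that is log2 of the reads plus 0.5 over a normalized library size, in a table of the lines and a table of the knockdown. The 6 libraries in both tables differ by at most 5e-08. Whole reads were recovered for 100% of values (within 0.01 read), so depth is known: 4075290 to 6118501 reads per library. The authors' filter on low genes could not be undone.

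Differences between groups were fitted to the log2 values by limma (version 3.58.1, R version 4.3.3, lmFit and eBayes with a variance trend, two-sided, all groups of a table in the fit, Benjamini-Hochberg over 12995 genes, threshold 0.05). Reads were simulated for the same genes and libraries, with the same spread setting for all genes. Changes were planted only in genes above the median level. The step recovered 65% of log2 changes of 1 and 100% of changes of 2 between SCC15 and SCC25. For the SCC25 knockdown it recovered 64% and 100%. In the real SCC25 libraries the YBX1 change of -2.01 did not pass (adjusted p = 0.29). These shares therefore do not measure what the knockdown comparison could detect. In the simulation 100 genes carried a change of each size, whereas 5672 genes were called between SCC15 and SCC25 in the data. The shares for the lines are therefore not detection rates for that comparison either. The labels number the replicates 1 to 3 in each group. Over 6497 genes, the deviations of same-numbered libraries correlated at 0.143, 0.462 and 0.402 in the SCC25 knockdown and 0.514, 0.354 and 0.221 in the SCC15 knockdown, so the numbers were taken to pair those libraries. The knockdown errors, intervals and p-values given above are nonetheless from the limma fit without a block by number. A block by number changed no knockdown call. With the block, TIPIN and DTL had an unadjusted p under 0.05 for the difference in response between the lines (0.0231 and 0.0487). The block held a shift per number that SCC15 and SCC25 shared, so a separate pairing within each line was not fitted.

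The 41 genes, the other lists and the tests were chosen with earlier results of these data known. Named in every comparison were 17 members (MCM2, MCM4, MCM5, MCM6, CDC45, CDC6, GINS2, GMNN, PCNA, POLA1, TYMS, RRM1, RRM2, CLSPN, UHRF1, CCNE2 and E2F8), together with the 5 largest called changes in each direction between lines and the 5 smallest unadjusted p of each knockdown. Other members were named after their values were seen. For each other list, the 3 largest called changes were named. Gene positions are those of GENCODE v44. To see shared sequence, 75-base pieces of each 3′ end were mapped to hg38 with minimap2 2.31. Promoter windows are those of RefSeq. Figures were drawn with matplotlib 3.10.9.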

Additional observations from a re-analysis of the deposited data

How the results depend on the processing

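Beside the settings of the main analysis, 220 recomputed counts of called members were compared. Higher members between SCC15 and SCC25 (19) numbered 11 to 15 with a library left out and 10 at a threshold of 0.01, and 1 (ATAD2) was lower with only the groups compared. The lower member in SCC15 against OKF6 (SLBP) was 0 with equal library medians, quantile normalization, total reads, no variance trend and a threshold of 0.01, and 0 to 2 with a library left out. The higher members in SCC25 against OKF6 (5) numbered 4 to 10 with a library left out. The other 204 counts lay within 1.5 times. Among them, the 19 became 25 with only the groups compared or quantile normalization, 24 with total reads and 23 with equal library medians. Many of the 204 were 0 both in the main fit and in the alternative, all knockdown counts included, and say nothing of stability. With the replicate block, where the number was not found to pair lines (correlations from -0.207 to 0.26), SCC15 against SCC25 gave 15 higher members (PCNA, DSCC1, BRIP1 and RAD51AP1 were lost, adjusted p between 0.0516 and 0.0655), SCC15 against OKF6 19 higher (UBR7 was lost, adjusted p = 0.0794) and 1 lower, and SCC25 against OKF6 5 and 6. No member was called in a knockdown under any setting run, the removal of replicate 2 from every group included, which was chosen after seeing the data.

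Of 2384 recomputed values of named genes and medians, 43 lost the threshold, 20 gained it, 25 moved by more than the spread and no called change turned its direction. Among the medians, which have no test, that of SCC25 against OKF6 (0.04) was -0.12 with total reads, where the median of all genes moved alike, and -0.02 and -0.10 without OKF6 replicate 2 and 3, and that of the SCC25 knockdown (-0.13) was 0.01 without SCC25 –YBX1 replicate 2 and 0.03 without replicate 2 of every group. Between SCC15 and SCC25, the median of all genes shifted to 0.14 with equal library medians, 0.17 with quantiles and 0.34 with total reads, and the median of the 41 genes relative to it was 0.76, 0.82 and 0.76. Equal library medians and total reads shift all genes of a library alike. Only the quantile value could therefore differ from the 0.76 of the main fit.

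Depth limits E2F8 and CCNE2 most. With 3 libraries a group, the YBX1 changes of -2.01 and -2.15 did not pass in the knockdown.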
